A study of Mus with 3 samples.

Results

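The mouse genes that encode the proteins of the cytosolic ribosome were followed as one group across the cells of MC38 tumors. Genes were taken by symbol, namely Rps or Rpl with a number, Rplp with a digit, and Rpsa, and needed 30 or more unique molecular identifiers (UMIs, each standing for 1 captured RNA molecule) over all barcodes with 500 or more gene UMIs. Of 32285 genes in the matrix, 84 symbols matched, and 81 were members: 32 genes of the small subunit and 49 of the large subunit. Rpl29 was left out by the rule, and Rpl10l and Rpl3l had too few UMIs.

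On day 16, tumors grown from MC38, a mouse colon adenocarcinoma line, were collected from WT mice, RARα-KO mice and RARα-TG mice, and sorted T cells were spiked with unsorted tumor cells. RARα-KO mice carried a floxed Rara together with dLck-Cre, a Cre under the distal Lck promoter that acts in T cells, and the implanted MC38 cells were not altered. RARα-TG mice expressed Rara under the CD2 promoter, and which of the control strains of the study (C57BL/6 or dLck-Cre) gave the WT tumor is not stated. Every genotype was marked by 1 antibody hashtag, all cells were pooled in 1 library of a 5′ end kit, and the number of mice per genotype was not given, so a genotype was 1 sample and a difference between genotypes had no replicate. Some label fields name spleen and activated naive CD8 T cells, whereas the tumor protocol in the same labels and the T cell, macrophage and MC38 markers in the counts are those of tumors.

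Ribosomal proteins assemble with ribosomal RNA into the small subunit, which reads the mRNA, and the large subunit, which forms peptide bonds. Rplp0, Rplp1 and Rplp2 form the stalk that recruits elongation factors, Rpsa sits on the small subunit and is also known as the laminin receptor, and Rps27a is made as a fusion with ubiquitin. Most of these mRNAs carry a terminal oligopyrimidine tract and are regulated in translation by mTOR, and naive and memory T cells are known for a high fraction of ribosomal protein mRNA. Some members have a paralog that is expressed at another level or in other tissues, such as Rpl22l1 for Rpl22, Rps27l for Rps27, Rpl36al for Rpl36a and Rpl7l1 for Rpl7.

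A total of 5600 barcodes had 500 or more gene UMIs, with a median of 4808, and 4935 carried 1 hashtag. These were 1930 WT, 2109 RARα-KO and 896 RARα-TG cells, with medians of 5149, 5129 and 3404 UMIs per cell. Cytotoxic T lymphocytes (CTLs) were cells of T cell clusters with Cd8a and without Cd4 UMIs, CD4 T cells had Cd4 and neither Cd8a nor Cd8b1 and were divided by Foxp3, and macrophage-like cells and MC38 or stromal-like cells were clusters found without the members. Rara itself had 87.5, 80.04 and 249 CPM (UMIs of a gene scaled by the total of the sum to counts per 1e+06) in T cells of WT, RARα-KO and RARα-TG tumors, and values given as 3 in a row follow this order. T cell clusters held 1454, 1719 and 785 cells, against 844, 1183 and 113 CTLs and 216, 246 and 263 CD4 T cells. Part of the T cells was thus in neither class, and the effect of these gates on genotype ratios was not tested. Over all T cells, the members held 21.5%, 20.1% and 17.1% of gene UMIs. Rpl29, which the rule leaves out by name, measured 3174, 322 and 3075 CPM in CTLs. Its low value in RARα-KO was not limited to T cells, with 1451, 162 and 1792 CPM in macrophage-like cells. In MC38 or stromal-like cells, Rpl29 measured 1929, 1831 and 1725 CPM. The cause of this difference between samples, and its bearing on the genotype ratios below, was not tested. The deleted exon of Rara is not what the 5′ end counts, so the Rara value in RARα-KO T cells does not check that label. All intervals given are exact 95% intervals and cover counting error only.

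All 81 members matched a RefSeq entry of assembly GRCm38.p6, the build of the files. They lay on 19 chromosomes, 14 of them on chromosome 7, 4 on X and none on Y, so that the group shared no locus. Rpsa (chromosome 9, 120127766 to 120132369), Rplp1 (chromosome 9, 61913283 to 61914510) and Rps27l (chromosome 9, 66944624 to 66949522) were on the same chromosome, and Rpl10 was on X (74270816 to 74273135). The annotation held pseudogenes named after 60 of the members. Copies that were counted as genes of their own took 132495 UMIs for Rpl9-ps6 and 90169 for Rpl10-ps3, so the values of Rpl9 and Rpl10 are uncertain, since reads may be split between near-identical copies.

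Ribosomal protein genes took up more of the RNA of CTLs than of the RNA of any other class measured. In CTLs, the members held 23.0%, 20.7% and 24.7% of gene UMIs (n = 844, 1183 and 113 cells). In MC38 or stromal-like cells, the shares were 19.9%, 19.8% and 20.4% (n = 276, 133 and 18 cells). CD4 T cells without Foxp3 held 17.5%, 18.4% and 17.7% (n = 96, 167 and 112). The values of the 3 genotypes lay within 1 percentage point in each of the last pair of classes, and all of them were below those of CTLs.

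Foxp3 encodes the factor that defines regulatory T cells. Foxp3-positive CD4 T cells held 15.3%, 14.99% and 12.99% (n = 120, 79 and 151). Macrophage-like cells held 10.3%, 8.04% and 14.9% (n = 77, 127 and 35), the widest range between genotypes of the 5 classes. Barcodes with 100 or fewer UMIs, which hold free RNA, had 14.2%. In RARα-TG tumors, this value lay above Foxp3-positive cells and below macrophage-like cells. In WT and RARα-KO tumors, it lay below Foxp3-positive cells and above macrophage-like cells. The difference in share between macrophage-like cells and CTLs averaged -11.7 percentage points with an SD of 1.68 over the 3 genotypes, and that between Foxp3-positive and other CD4 T cells averaged -3.45 with an SD of 1.29. Each of these differences had the same sign in all 3 genotypes, and an exact paired permutation test of 3 pairs cannot give a two-sided p below 0.25. Classes also differed in depth, with a median of 20038 to 30651 UMIs per cell in MC38 or stromal-like cells against 4680 to 5666 in CTLs. Within a class and genotype, the Spearman correlation of share with UMIs per cell ran from -0.18 (RARα-TG MC38 or stromal-like cells) to 0.51 (WT Foxp3-positive cells). In CTLs, it was 0.26, 0.20 and 0.29. The shares by class moved by less than the spread between genotypes under all 45 alternatives, and depth was among the settings changed. Beyond this, the part of depth in the shares was not tested.

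**Figure D1:**
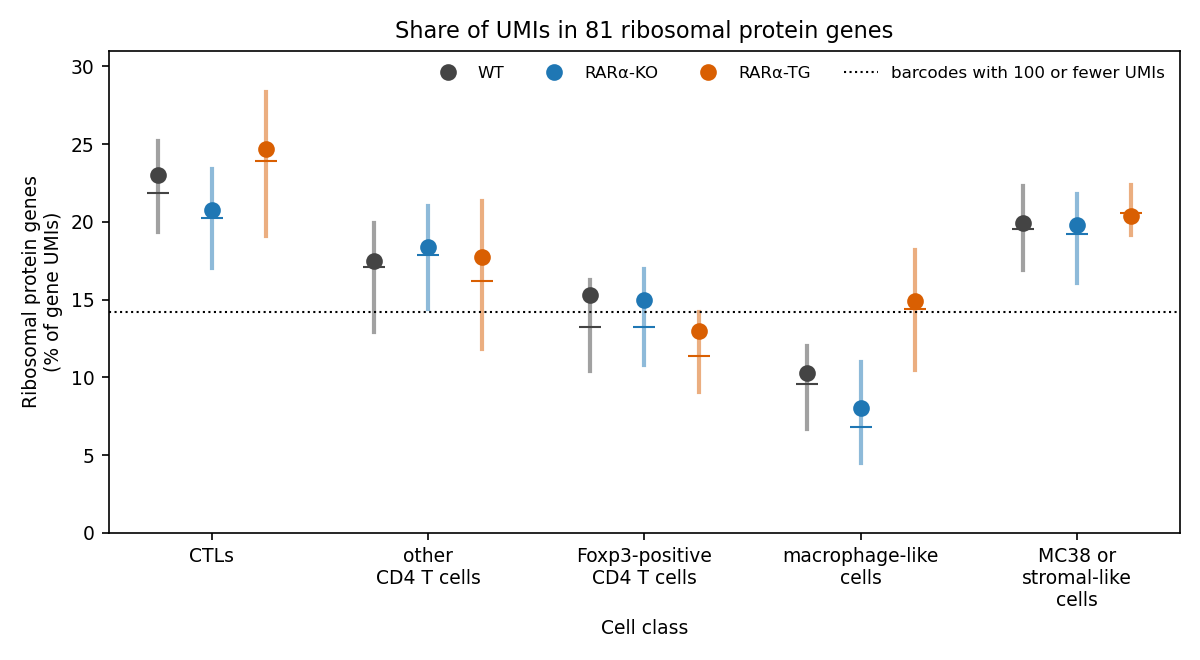
Share of gene UMIs in the 81 ribosomal protein genes (y axis, percent) by cell class (x axis) and genotype (color). Circles are shares of UMIs summed over cells, horizontal ticks and vertical bars are the median and quartiles over cells, and the dotted line is the 14.2% of barcodes with 100 or fewer UMIs. CTLs are highest at 20.7% to 24.7%, and macrophage-like cells range from 8.04% to 14.9%.

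Within T cells, the share varied more between clusters than between genotypes. The cluster led by Atp1b1 and Tcf7, with Lef1 and S1pr1, which are genes of naive and memory T cells, held 30.2%, 27.6% and 29.2%. The cluster led by Foxp3 and Lrrc32 held 13.7%, 13.7% and 12.8%. Effector clusters lay between, with 23.3% in both WT and RARα-KO cells of the cluster led by Gzmf, Gzmd and Gzme, and 22.9% and 21.0% in the chemokine cluster led by Xcl1 and Ifng. A further T cell cluster with S1pr1 and Tcf7, led by Ramp3, held 20.7%, 20.5% and 20.7%, so a high share was not common to clusters with these genes. The histone and Mki67 cluster of dividing T cells was not the highest, with 20.9%, 19.2% and 17.7%. A cluster led by the neutrophil genes S100a9 and S100a8 held 1.64%, 1.11% and 3.33% on 10, 37 and 10 cells. In every genotype, the range between T cell clusters was wider than the difference between genotypes in the same cluster.

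**Figure D2:**
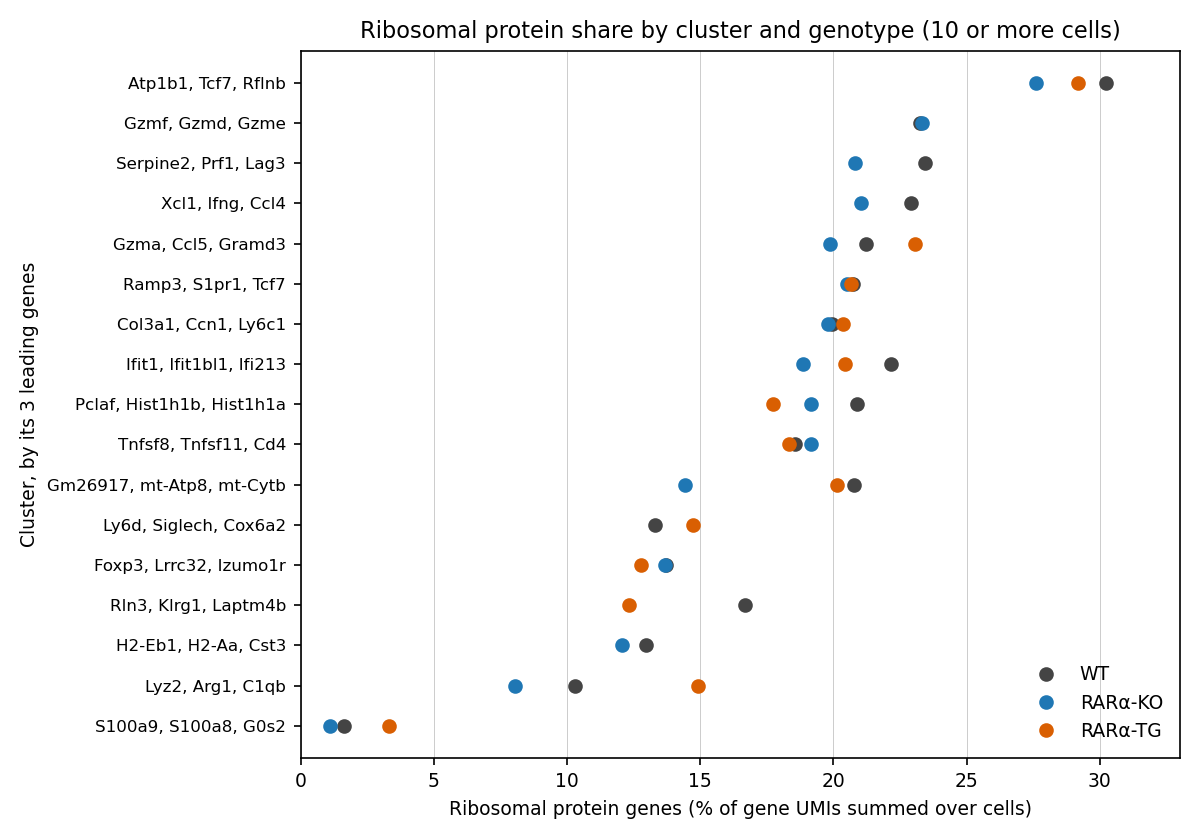
Share of gene UMIs in the 81 genes (x axis, percent) for each cluster found without these genes (y axis, named by 3 leading genes), with 1 point per genotype of 10 or more cells. The cluster led by Atp1b1 and Tcf7 lies at 27.6% to 30.2% and the cluster led by S100a9 at 1.11% to 3.33%.

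Among single members, levels in WT CTLs were high for Rpsa with 8062 CPM, Rps24 with 7285, Rpl13 with 7141 and Rplp0 with 6498. The lowest were Rpl39l, with no UMI, Rpl7l1 with 57.7 CPM, Rps27l with 184, Rpl10 with 384 and Rpl23a with 519. These are levels of captured 5′ ends and were not divided by length, so they rank molecules counted in this kit. Rpl39l, a paralog of Rpl39 known from male germ cells, did not pass 0.1 UMIs per cell in any class, and the other 80 members were compared.

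The comparison of macrophage-like cells with CTLs asked whether the lower share was carried by all members. UMIs were summed per genotype and class and tested with edgeR over 8189 genes, with the 3 genotypes as the replicates. Fold changes also use TMM factors (scaling beyond the total) of 0.79, 0.82 and 0.84 in macrophage-like cells and 0.97, 0.96 and 1.03 in CTLs. CPM use totals only, so fold changes in this contrast lie above those that the printed CPM give. Of 80 members, 65 were lower in macrophage-like cells, against 27.1% of all genes called lower, and 1 was higher, against 23% of all genes called higher. The median log2 fold change of the members was -0.73, beside -0.19 over all genes tested. Both subunits took part, with 25 of 32 small subunit genes and 40 of 48 large subunit genes lower.

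Rpsa stood at 8062, 7121 and 8648 CPM in CTLs and at 2159, 1950 and 3112 CPM in macrophage-like cells. The groups did not overlap, and the log2 fold change was -1.46 ± 0.18 (SE, edgeR adjusted p = 3.6e-06). Rps15a had a log2 fold change of -1.47 ± 0.20 (edgeR adjusted p = 8.9e-06) and Rpl13a, whose protein is also known for its part in translational silencing in monocytes, of -1.32 ± 0.18 (edgeR adjusted p = 9e-06). Rpl12 and Rps7 followed with -1.14 and -1.11.

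Rpl10, an X-linked gene of the large subunit, was the member that was higher. It measured 384, 349 and 402 CPM in CTLs and 521, 407 and 674 CPM in macrophage-like cells, with every macrophage value above every CTL value. Its log2 fold change was 0.75 ± 0.17 (edgeR adjusted p = 0.0017), and its copy Rpl10-ps3, counted apart, had lower CPM in macrophage-like cells (1319, 920 and 1613) than in CTLs (1678, 1404 and 1903) of each genotype. The 14 members that did not pass the test included Rps27l, Rpl7l1, Rpl36al, Rps25, Rpl41, Rps29, Rpl35a, Rps9, Rpl26, Rps28, Rps27a, Rpl9 and Rpl23a, among them 3 of the paralogs. Rps27l, a paralog of Rps27 that is induced by p53, had a log2 fold change of 0.39 ± 0.22 (edgeR adjusted p = 0.15), while Rps27 was lower by a log2 fold change of -1.03 ± 0.17 (edgeR adjusted p = 6.8e-05). Without the WT sample, 14 members were lower, and without the RARα-KO sample 2 were higher.

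Between MC38 or stromal-like cells and CTLs, members were called in both directions. Of 80 members, 19 were lower, against 32.5% of all genes, and 3 were higher, against 32.7% of all genes, with a median log2 fold change of -0.20 for the members and -0.01 for all genes. In each direction, the share of members called was below that of all genes.

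Rpl22l1 was lowest relative to CTLs. It measured 611, 496 and 622 CPM in CTLs and 198, 241 and 248 CPM in MC38 or stromal-like cells, without overlap (log2 fold change -1.36 ± 0.23, edgeR adjusted p = 5.6e-05). Its paralog Rpl22, an RNA-binding large subunit protein known from T cell development, did not pass the test, with a log2 fold change of 0.16 ± 0.17 (edgeR adjusted p = 0.43). Rpl36al was lower by -0.90 ± 0.20 (edgeR adjusted p = 0.00067), and its paralog Rpl36a had 0.15 ± 0.23 (edgeR adjusted p = 0.58). Both pairs had their paralog lower than in CTLs, with the main gene not called. Rpl10, Rps12 and Rpl23a were higher, with log2 fold changes of 0.69, 0.54 and 0.50, and Rps15a, Rpl13a and Rpsa were lower, with -1.09, -0.97 and -0.90. Without the WT sample, 0 members were higher and 7 lower, without the RARα-KO sample 1 was higher, and without the RARα-TG sample 5 were higher and 31 lower.

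Against macrophage-like cells, MC38 or stromal-like cells had 48 members higher, beside 30.5% of all genes, and 3 lower, beside 27.9% of all genes. Rps12 had the largest log2 fold change (1.17 ± 0.20, edgeR adjusted p = 8.3e-05). The 3 that were lower were Rpl36al with -0.94, Rpl22l1 with -0.71 and Rps29 with -0.48. The median over members was 0.58, beside 0.10 over all genes. Without the WT sample, 12 members were higher and 1 lower, and without the RARα-KO sample 27 were higher.

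**Figure D3:**
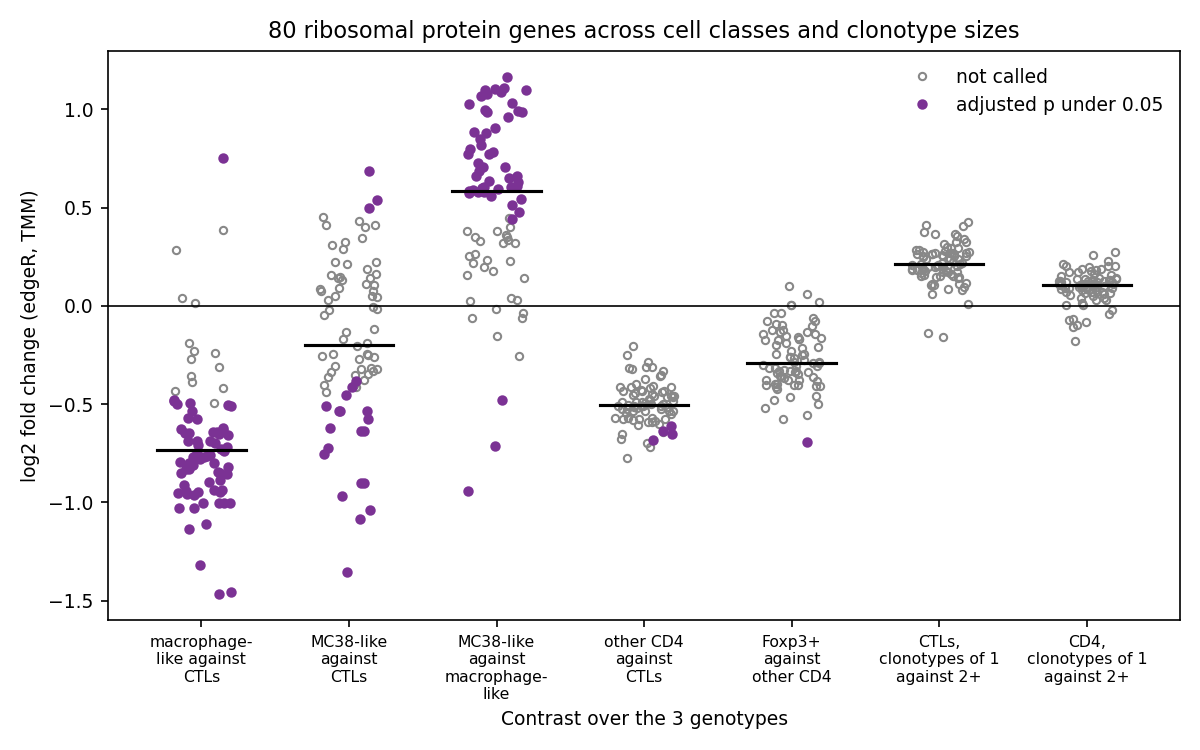
Log2 fold change of 80 ribosomal protein genes (y axis, edgeR) in 7 contrasts (x axis) between cell classes and between clonotype sizes. Each point is a gene, filled where its adjusted p was under 0.05, and lines are medians. In macrophage-like cells against CTLs the median is -0.73 with 65 genes lower, whereas in other CD4 T cells against CTLs 4 are called around a median of -0.51.

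Among T cells, every one of the 80 members had a lower estimate in CD4 T cells without Foxp3 than in CTLs, with a median log2 fold change of -0.51, while few passed the test. Rps2, Rpl28, Rps20 and Rpl7a were lower, which is 4 members beside 1.62% of all genes, and 0 were higher by edgeR, beside 2.49% of all genes. At an unadjusted p under 0.05, 66 were lower and 0 higher. By DESeq2, 11 members were lower and 0 higher. Counts at an unadjusted p, by DESeq2 or with a sample left out have no share of all genes beside them in any contrast. They therefore do not show that members differ more often than other genes. Rps2, a small subunit protein at the mRNA entry channel, measured 5376, 4978 and 5348 CPM in CTLs and 3539, 3803 and 3591 CPM in these CD4 T cells (log2 fold change -0.68 ± 0.17, edgeR adjusted p = 0.028). The median over all genes was -0.07. With totals in place of TMM factors 0 members were called lower, without the WT or the RARα-KO sample 0 were, and without the RARα-TG sample 11 were.

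Foxp3-positive CD4 T cells had a median of -0.29 relative to other CD4 T cells, with 75 of 80 estimates below 0. By edgeR 1 member was lower, beside 2.25% of all genes, and 0 were higher, beside 2.75% of all genes, with 17 lower and 0 higher at an unadjusted p under 0.05. DESeq2 called 3 lower and 0 higher. Without the WT sample or without the RARα-KO sample, 0 were lower. Rpsa, which was among the most reduced members in macrophage-like cells, had 0.02 ± 0.18 here (edgeR adjusted p = 1).

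Clonotype size is the number of cells of a genotype with the same T cell receptor and was read from the receptor sequences, not from the gene counts. In WT CTLs, the share of the members was 27.1% in clonotypes of 1 cell, 22.7% in those of 2 to 9 cells, 22.6% in those of 10 to 49 and 21.2% in those of 50 or more. In RARα-KO CTLs, the shares were 21.2%, 21.5%, 20.9% and 19.7%. RARα-TG CTLs had 25.7% in clonotypes of 1 cell and 21.8% in those of 2 to 9, the latter on 13 cells, with no larger clonotype of 10 or more cells shown. The share was thus highest in single-cell clonotypes in WT and RARα-TG CTLs and differed by little between sizes in RARα-KO CTLs.

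Cells of the cluster led by Atp1b1 and Tcf7 made up 38.2%, 7.53% and 29.6% of CTLs in clonotypes of 1 cell, and 0.150%, 0% and 0% of those in clonotypes of 2 or more. With this cluster left out, clonotypes of 1 cell held 24.5%, 20.7% and 23.2%, and clonotypes of 2 or more held 22.5%, 20.6% and 21.8%. The difference was then smaller in each genotype than with the cluster, which averaged 3.05 percentage points with an SD of 2.14.

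**Figure D4:**
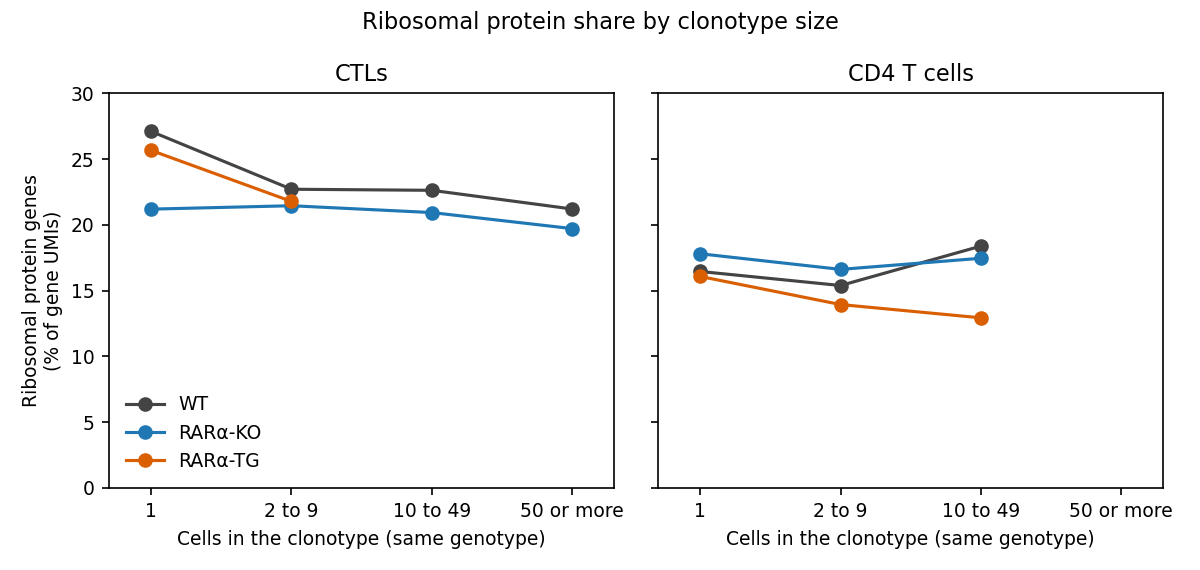
Share of gene UMIs in the 81 genes (y axis, percent) by the number of cells in the clonotype (x axis) for CTLs and CD4 T cells, 1 line per genotype. In CTLs, WT has 27.1% in clonotypes of 1 cell and 21.2% in those of 50 or more, and RARα-KO lies between 19.7% and 21.5%.

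No single member passed the test of clonotypes of 1 cell against 2 or more in CTLs. By edgeR, 0 of 80 were higher, beside 0.928% of 6248 genes, and 0 lower, beside 0.576%, with 8 higher and 0 lower at an unadjusted p under 0.05 and 0 in both directions by DESeq2. The median log2 fold change was 0.21, beside 0.02 over all genes, and 78 estimates were above 0. The 5 highest were Rps27 (0.43 ± 0.16, edgeR adjusted p = 0.27), Rplp1 (0.41 ± 0.16), Rps12, Rpl36a and Rps28, and those below 0 were the paralogs Rpl7l1 and Rps27l. In CD4 T cells, 0 were higher, beside 0.609% of 5912 genes, and 0 lower, beside 0.846%, with a median of 0.11, 7 higher and 0 lower at an unadjusted p under 0.05 and 0 by DESeq2. Each of these fits had 2 residual degrees of freedom.

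Genotypes were compared within a class as ratios of CPM to WT, without a test. All genes entered from 0.1 UMIs per cell, whereas compared members ran from 0.38 (Rpl7l1) to 53.7 (Rpsa) UMIs per cell in WT CTLs. Ratios of low genes spread more by counting error, most of all where cells are few. The shares of all genes past 1.5-fold are therefore not matched to the members in level. In CTLs of RARα-KO tumors, the share had a log2 ratio of -0.15 to WT, and 74 of 80 members were below WT by a small ratio with a median of -0.15, beside 0.02 over all genes. None of the 80 was past 1.5-fold, beside 7.03% of all genes. The share was lower than WT in 6 of 8 clusters with 10 or more CTLs of both genotypes and higher in 2, with log2 ratios from -0.26 to 0.14. With clonotypes weighted equally the ratio was -0.24.

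Low ratios in RARα-KO CTLs were those of Rps7, Rpl22l1, Rpl3 and Rpl37, between -0.32 and -0.29. The paralog Rps27l went the other way, with 184, 258 and 183 CPM in CTLs (95% intervals 173 to 196, 247 to 269 and 150 to 220), a log2 ratio of 0.49 in RARα-KO. Rplp1, of the stalk, measured 2496, 2910 and 3297 CPM in CTLs. Its stalk partners did not share the ratio of RARα-KO CTLs, with log2 ratios of -0.01 for Rplp0 and -0.04 for Rplp2 beside 0.22 for Rplp1. Rps19, Rpl7a and Rpl41 had 0.06, 0.03 and 0.02.

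In RARα-TG CTLs, the share had a log2 ratio of 0.10 to WT and the members a median of 0.09, with 61 of 80 above WT, and again none past 1.5-fold, beside 26.7% of all genes. Rps27, Rplp1, Rpl12, Rps29 and Rps21 had the highest ratios, from 0.41 to 0.35. Rpl7l1 had the lowest, -0.53 (95% interval -1.20 to 0.065), on 39.8 CPM in RARα-TG and 57.7 CPM in WT CTLs, so that its interval held 0, and Rps15a, Rps26, Rpl24 and Rpl5 had -0.23 to -0.17. The cluster led by Atp1b1 and Tcf7 made up 6.16%, 0.845% and 26.5% of CTLs. With this cluster left out, the shares were 22.6%, 20.7% and 22.7%, a log2 ratio of 0.01 for RARα-TG and of -0.13 for RARα-KO. The cluster led by Gzma and Ccl5 held 56.6% of CTLs in RARα-TG tumors, against 211 of 844 CTLs (WT) and 25.6% (RARα-KO), and without it the shares were 23.3%, 20.9% and 25.8%, a log2 ratio of 0.15 for RARα-TG and of -0.16 for RARα-KO. Within these clusters, RARα-TG had log2 ratios of -0.17 in the cluster led by Atp1b1 and Tcf7 and 0.12 in that led by Gzma. Both omissions were chosen after the data were seen. With clonotypes weighted equally, the ratio of RARα-TG was -0.04.

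Pooled CD4 T cells had the opposite signs to CTLs, which did not hold for both of their subsets. The log2 ratio of the share was 0.08 for RARα-KO and -0.13 for RARα-TG, from shares of 16.2%, 17.2% and 14.8%. None of 80 members was past 1.5-fold in either genotype, beside 15.1% of all genes for RARα-KO and 15.4% for RARα-TG. The medians over the members were 0.07 and -0.12. In CD4 T cells without Foxp3 they were 0.08 and 0.02, and in Foxp3-positive cells -0.03 and -0.23, so that 1 subset in each genotype had the sign of CTLs. Foxp3-positive cells made up 120 of 216, 79 of 246 and 151 of 263 CD4 T cells, and the part of this makeup in the pooled ratio was not tested.

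The cluster led by Rln3 and Klrg1 held 253 RARα-TG, 24 WT and 7 RARα-KO cells, and a cluster mostly of 1 genotype may reflect that sample and not a cell type. It made up 10.8%, 5.06% and 63.6% of Foxp3-positive CD4 T cells. Without it, the share of all CD4 T cells was 17.0% in RARα-TG against 16.0% in WT, so that the log2 ratio turned from -0.13 to 0.08. This step, too, was chosen after the data were seen.

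In RARα-TG CD4 T cells, Rpl22l1 had the lowest log2 ratio, -0.45, followed by Rpl9, Rpsa, Rpl12 and Rps28, and Rps27l the highest, 0.26. Rpsa had 6879, 6664 and 4940 CPM in Foxp3-positive cells, whereas in CD4 T cells without Foxp3 it had 6049, 6460 and 5922. In RARα-KO CD4 T cells, Rpl7l1, Rps27l, Rplp1, Rpl23a and Rpl23 had the highest ratios, between 0.44 and 0.24, and Rpl22l1 and Rpl3 the lowest, -0.13 each.

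Rplp1 was above WT in RARα-KO cells of 4 classes. In CD4 T cells without Foxp3 it measured 2057, 2919 and 2291 CPM (95% intervals 1925 to 2196, 2807 to 3035 and 2157 to 2431). In Foxp3-positive cells it measured 2273, 2666 and 1841 CPM. In MC38 or stromal-like cells it measured 3244, 3883 and 3687. The log2 ratios to WT in RARα-KO were 0.51, 0.23 and 0.26 in these classes and 0.22 in CTLs, and that of macrophage-like cells was -0.17. The 4 positive ratios had intervals above 0. In RARα-KO CD4 T cells without Foxp3, the stalk partner Rplp2 was also above WT, with a log2 ratio of 0.22 (95% interval 0.096 to 0.34). Rplp0 had 0.02 in these cells.

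Macrophage-like cells showed the widest differences between genotypes. In RARα-TG tumors the members had a median log2 ratio of 0.55 to WT, all 80 were above WT and 32 were higher by more than 1.5-fold, beside 21.6% of all genes higher and 22.5% lower by this fold. In RARα-KO tumors the median was -0.35, 78 were below WT and 11 were lower by more than 1.5-fold, beside 15.5% of all genes lower and 15% higher. The medians over all genes were 0.0048 and -0.02. In the direction of the members, their count past 1.5-fold was above the share of all genes in RARα-TG and near it in RARα-KO.

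Rps27a, the ubiquitin fusion, measured 2109, 1258 and 3031 CPM in macrophage-like cells, the lowest log2 ratio of RARα-KO at -0.75, followed by Rpl14, Rpl3, Rpl36a and Rpl35a at -0.72 to -0.68. Rpl41 (-0.06) and Rpl13a (-0.06) were near WT, and Rpl23a had 0.17. In RARα-TG, Rpl7l1 had the highest ratio, 1.61 (95% interval 0.71 to 2.52) on 106 CPM against 34.7 in WT, followed by Rpl23a, Rpl35a, Rpl12 and Rps18 at 0.97 to 0.79, and Rpl7a had the lowest, 0.03.

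Other values moved with the genotype in these cells. The sum of 15 macrophage markers was 18907, 12096 and 22465 CPM, and the sum of 10 T cell markers was 175, 652 and 126 CPM, with none of either list at 0 in all 3. The share of mitochondrial UMIs was 0.647%, 0.585% and 0.832%, and the median depths were 6712, 6427 and 6630 UMIs. The part of these values in the result was not tested. When the genotype was taken from the top hashtag, 42 members were past 1.5-fold for RARα-KO and 2 for RARα-TG, with log2 ratios of the share of -0.62 and 0.25. Relative to the UMIs of the members alone, 1 was past 1.5-fold in each genotype.

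MC38 or stromal-like cells, whose cluster could hold host stromal cells beside the implanted line, had log2 ratios of the share of -0.01 for RARα-KO and 0.03 for RARα-TG. None of 80 members was past 1.5-fold, beside 9.66% of all genes for RARα-KO and 38% for RARα-TG, the latter on 18 cells. The sum of 10 T cell markers in these cells was 21.0, 71.7 and 248 CPM, and its part in the ratios was not tested. Rplp0 stood apart in RARα-KO, with 5862, 4930 and 5966 CPM and a log2 ratio of -0.25 (95% interval -0.27 to -0.23), the lowest of the 80. Rpl22l1, Rpl7l1 and Rplp1 had the highest, 0.28, 0.27 and 0.26. In RARα-TG, Rps29 had 0.42, Rpl22l1 0.32 and Rps27l -0.31.

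**Figure D5:**
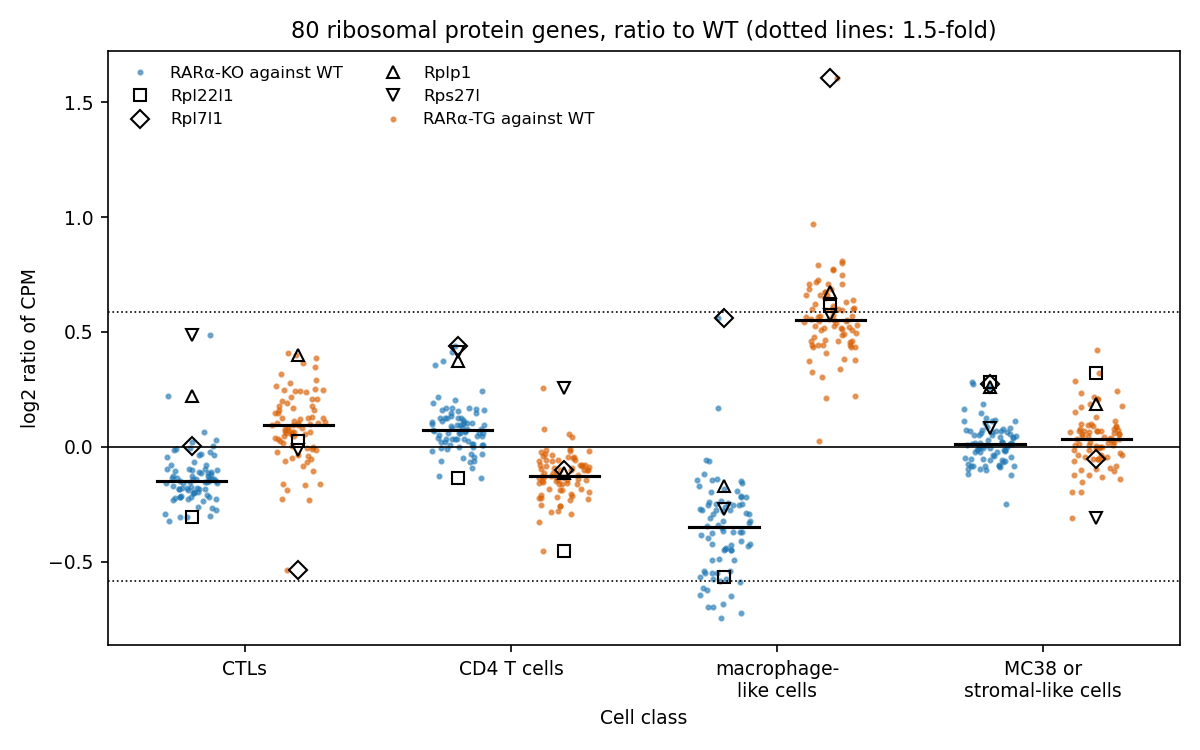
Log2 ratio of CPM to WT (y axis) of 80 ribosomal protein genes in 4 cell classes (x axis), RARα-KO in blue and RARα-TG in orange. Points are genes, lines are medians, open symbols mark 4 named genes, and dotted lines are 1.5-fold. Medians lie at -0.15 and 0.09 in CTLs and at -0.35 and 0.55 in macrophage-like cells.

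Members varied together over the 15 sums of 5 classes and 3 genotypes. The Spearman correlation of a member's CPM with the sum of the other members had a median of 0.88, and 57 of 80 had 0.8 or more. The lowest were Rps27l with -0.02, Rpl10 with 0.16, Rpl36al with 0.20, Rpl7l1 with 0.27 and Rpl22l1 with 0.37. These are 4 paralogs and Rpl10, whose values are uncertain since its reads may be split with the copy Rpl10-ps3. The other X-linked members, Rps4x, Rpl36a and Rpl39, had 0.94, 0.92 and 0.88. Among 4202 other genes, the highest were those of Snrpe (0.93), Snrpd2 (0.93), AI506816 (0.93), Nop10 (0.92) and Npm3 (0.92). Snrpe and Snrpd2 encode core proteins of spliceosomal particles and Nop10 a protein of box H/ACA particles. All genes share the totals of the sums, 5 sums of a genotype share its sample, and these correlations are a description. How many of the 4202 other genes reached 0.8 is not given, so the correlation is not shown to be particular to the members.

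Other genes of translation were counted by pathway list. In macrophage-like cells against CTLs, 26 of 55 ribosome biogenesis genes tested with edgeR were lower and 0 higher, beside 27.1% of all genes lower and 23% higher. Of 42 initiation and elongation genes 16 were lower and 5 higher, with Eif4a1, a helicase of initiation, the highest at a log2 fold change of 1.28 and Pabpc4 the lowest at -1.78. Of 77 mitochondrial ribosomal proteins, 17 were lower and 6 higher, from Mrps27 (-1.89) to Mrpl39 (1.17), both counts under the share of all genes. All 3 genes of a short list of further ribosomal proteins were lower, with a median of -0.77. In MC38 or stromal-like cells against CTLs, 31 of 55 ribosome biogenesis genes were higher and 2 lower, beside 32.7% of all genes higher and 32.5% lower, with Myc, which drives ribosome production, the highest at 4.27 and Ddx21 the lowest at -1.03. Thus 31 biogenesis genes and 3 members were higher in the same contrast.

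In the same lists, RARα-KO CTLs had 1 of 53 biogenesis genes past 1.5-fold, namely Myc with a log2 ratio of 0.64, and 0 of 42 initiation and elongation genes, with Eif4a2 the highest at 0.37. In RARα-TG CTLs, 4 of 54 biogenesis genes were past 1.5-fold upwards and 3 downwards, from Heatr1 (-1.35) to Nop56 (0.75), fewer than the 26.7% of all genes past this fold. In RARα-KO macrophage-like cells, 17 of 44 biogenesis genes were below WT and 4 above by this fold, beside 15.5% and 15% of all genes. In RARα-TG, 13 of 47 were above and 3 below, beside 21.6% and 22.5% of all genes.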

How the data were processed

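Per the file headers and the methods, the authors aligned reads of a 10x Genomics 5′ end library to mm10 with Cell Ranger (6.1.0 in the submitters' processing notes, whereas the matrix header names version 4) and deposited a matrix of UMI counts, not normalized, for 730308 barcodes, with hashtag counts and a table of receptor contigs. Barcodes with 500 or more gene UMIs were kept, and genotypes were assigned with HTODemux (Seurat 5.3.0), which removed 427 barcodes with several hashtags and 238 with none. Doublets within a genotype were not removed. Cells were clustered with scanpy 1.11.5 (2000 variable genes, 30 components, Leiden resolution 1) without the members, mitochondrial and receptor genes, giving 18 clusters, of which 11 with clonotypes in over 50% of barcodes were T cell clusters. Sums per genotype and class were tested with edgeR 4.0.16 (quasi-likelihood test, TMM, filterByExpr, genotype as a block) with Benjamini-Hochberg adjustment over all genes tested and a threshold of 0.05. Nothing shows that these samples were separate animals, so a p-value measures the spread between 3 samples of 3 genotypes. Genes of 0.1 or more UMIs per cell entered ratios between genotypes. Named were the 5 highest and 5 lowest members of each contrast and of WT CTL levels, fixed paralogs and special subunits, 1 highest and 1 lowest gene per pathway list, and the 5 other genes most correlated with the members. The members and lists were chosen with earlier results of these data known. Tests were checked on simulated counts. Alternatives changed depth, hashtag calls, gates, clusters, scaling, filters, weights, tools (DESeq2 1.42.0) and samples. Sequences were not used here, and some genes that this rule names are not reported here.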

Additional observations from a re-analysis of the deposited data

Results flagged for a closer look

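The share of gene UMIs in the 81 ribosomal protein genes had log2 ratios to WT of opposite sign in different cell classes of the same genotype, and these 6 differences were not tested, since each genotype was 1 sample. For RARα-KO, CTLs had -0.15 and CD4 T cells 0.08, a difference of -0.23. CD4 T cells differed by 0.44 from macrophage-like cells (-0.36) and by 0.0920 from MC38 or stromal-like cells (-0.01). For RARα-TG, CTLs had 0.10 and CD4 T cells -0.13, a difference of 0.23. CD4 T cells differed by -0.66 from macrophage-like cells (0.53) and by -0.16 from MC38 or stromal-like cells (0.03). Split by Foxp3, the medians over the members were -0.03 in Foxp3-positive and 0.08 in other CD4 T cells for RARα-KO, and -0.23 and 0.02 for RARα-TG, so that 1 CD4 subset per genotype had the sign of CTLs. The RARα-TG ratios of CTLs and CD4 T cells were 0.01 and 0.08 without the clusters led by Atp1b1 and Tcf7 and by Rln3 and Klrg1, and that of CTLs was 0.15 without the cluster led by Gzma and Ccl5, steps chosen after seeing the data.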

How the results depend on the processing

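The shares by cell class and by clonotype size moved by less than the spread between genotypes under all 45 and 18 alternatives run. Log2 ratios of the share to WT are given for RARα-KO and then RARα-TG. In CTLs (-0.15 and 0.10) they were -0.15 and 0.0375 with a gate on Cd8a or Cd8b1, -0.17 and 0.13 with T cells taken by clonotype alone, -0.11 and 0.13 as medians over cells, -0.24 and -0.0384 with equal clonotype weights, -0.13 and 0.00511 without the cluster led by Atp1b1 and Tcf7, -0.16 and 0.15 without that led by Gzma and Ccl5, and -0.16 for RARα-KO without the Gzmd, Gzme and Gzmf cluster. In CD4 T cells (0.08 and -0.13) they were 0.0949 and -0.114 by the top hashtag, 0.0672 and -0.10 by clonotype alone, 0.15 and -0.115 in cells thinned to 1000 UMIs, and 0.14 and -0.17 as medians. Without the cluster led by Rln3 and Klrg1 RARα-TG turned to 0.0848. In macrophage-like cells (-0.36 and 0.53) they were -0.62 and 0.25 by the top hashtag, -0.31 and 0.63 thinned, -0.49 and 0.59 as medians, and -0.54 for RARα-KO by clonotype alone. In MC38 or stromal-like cells (-0.01 and 0.03) RARα-KO turned to 0.0507 by the top hashtag, the ratios were -0.0178 and 0.0447 thinned and -0.0241 and 0.0737 as medians, and RARα-TG was 0.0518 by clonotype alone. Members past 1.5-fold numbered 42 (RARα-KO) and 2 (RARα-TG) in macrophage-like cells by the top hashtag, 29 for RARα-KO by clonotype alone, 1 and 1 relative to the members alone, 53 for RARα-TG relative to the other genes, and 46 and 76 past a lower fold limit. In CTLs they numbered 1 and 1 relative to the members alone, 1 for RARα-TG by the top hashtag, and 1 and 6 past a lower fold limit. In CD4 T cells they numbered 1 and 1 thinned, 1 for RARα-KO without the Gzmd, Gzme and Gzmf cluster, and 4 and 2 past a lower fold limit. In RARα-TG MC38 or stromal-like cells they numbered 1 by the top hashtag, 3 thinned and 2 past a lower fold limit. Between classes, members higher in macrophage-like cells than in CTLs numbered 2 by the top hashtag and 0 thinned. In MC38 or stromal-like cells against CTLs, 6 were higher without scaling beyond the total, 1 without a filter, 9 by DESeq2 and 1 by clonotype alone, and 32 were lower without a filter, 30 by the top hashtag and 29 by clonotype alone. Against macrophage-like cells, 1 was lower without scaling. In other CD4 T cells against CTLs, 0 were lower without scaling, 11 without a filter, 11 by DESeq2, 2 with the gate on Cd8a or Cd8b1, 2 by clonotype alone and 10 thinned. In Foxp3-positive against other CD4 T cells, 3 were lower without a filter, 3 by DESeq2, 0 by clonotype alone, 10 thinned, and 0 without the genotype as a block, that is without pairing. In CTL clonotypes of 1 cell, 2 were higher thinned. Leaving out 1 genotype at a time gave 1 to 2 higher and 14 to 73 lower in macrophage-like cells against CTLs, 0 to 5 higher and 7 to 31 lower in MC38 or stromal-like cells against CTLs, 12 to 61 higher and 1 to 3 lower against macrophage-like cells, 0 to 11 lower in other CD4 T cells against CTLs, and 0 to 1 lower in Foxp3-positive against other CD4 T cells. The cause of these changes was not tested. RARα-TG values rest on 18 MC38 or stromal-like cells and on 13 CTLs in larger clonotypes.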
